A study of Mus musculus with 29 samples.

Results

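The lung of the mouse embryo was compared at 2 ages on either side of the change from the canalicular to the saccular stage, E16.5 and E18.5. Alveolar septa had been cut by laser capture from frozen sections of wild type C57BL/6 lungs, and a separate library was made for every animal. The comparison rests on 4 of the 29 libraries of the series, chosen by their age labels: embryos 9 and 2 at E16.5, and embryos 4 and 3 at E18.5. The labelled body weights were 0.6 g and 0.596 g at E16.5 and 1.146 g and 1.043 g at E18.5. The other 25 libraries, from P0.5 to P28, serve as the postnatal range and lend their spread to the test. No embryo was treated and all carry the same genotype, so age is the only labelled difference besides weight and sex. The captures are named alveolar septa by the labels at every age, although at E16.5 the distal lung consists of tubules and buds and has no alveoli. The operators cut widely around the chosen areas to keep out bronchi and large vessels. Dams and litters are not given, so the p values measure the spread between animals of one age.

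In the canalicular stage the distal tubules widen, the mesenchyme between them thins and capillaries come to lie against the epithelium. In the saccular stage the tips open into sacs, and the epithelium divides into flat alveolar type 1 cells, which carry gas exchange, and cuboidal alveolar type 2 cells, which store surfactant in lamellar bodies. Surfactant, the lipid and protein film that keeps sacs from collapsing, and the channels that clear lung liquid have to be ready before birth.

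Values are FPKM, fragments scaled by transcript length and by the mapped fragments of the library, and the 4 values of a gene are always given in the order of embryos 9 and 2 at E16.5 and 4 and 3 at E18.5. Read depth is unknown. The summed FPKM of the 4 libraries ranged from 346484 to 394849, and 12418 to 12896 genes reached an FPKM of 1. Across genes, log2(FPKM + 1) correlated with r = 0.90 between the E16.5 embryos, 0.921 between the E18.5 embryos, and 0.820 to 0.881 across ages. Of 8623 protein coding genes whose median over the libraries reached 5 FPKM, E16.5-2 lists 68 at 0, and the other 3 embryos list 5 to 16. By Xist and the Y-linked genes each age holds 1 female and 1 male. At E18.5 the labels have them the other way round: the embryo labelled female, E18.5-4, had Xist at 1.63 and Ddx3y at 49.9, and the one labelled male, E18.5-3, had 296 and 0.0501. Sex did not enter the fit. In bulk RNA, fewer cells of a type and less RNA per cell cannot be told apart.

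Of 15488 genes tested, 386 were higher at E18.5 (2.49%) and 345 were lower (2.23%). A gene was called when its difference in log2(FPKM + 1), fitted by limma over all 15 ages, had a Benjamini-Hochberg adjusted p under 0.05, and every adjusted p below is from that fit. A log2 difference is on that scale, E18.5 minus E16.5, with its standard error after the sign ±. The median difference over all genes tested was -0.09. In all 731 called genes the values of the 2 ages did not overlap. Many more genes separated the embryos by age than passed the test. Both E18.5 embryos lay above both E16.5 embryos in 3056 genes (19.7%) and below them in 4278 (27.6%). Counts in the gene lists below are to be read against these shares of all genes. The calls lean on each embryo. Without E18.5-4 they fell to 173 higher and 93 lower, and without E16.5-2 to 170 and 119. Without E16.5-9 they were 303 and 282, and without E18.5-3 they were 251 and 222. In every one of these 4 fits, 115 of the higher and 61 of the lower genes were called again. Fitted on the 4 embryos alone, with 2 residual degrees of freedom, no gene passed in either direction, and 2703 genes had an unadjusted p under 0.05. An exact permutation test of 2 against 2 embryos cannot give a two-sided p below 0.333.

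**Figure D1:**
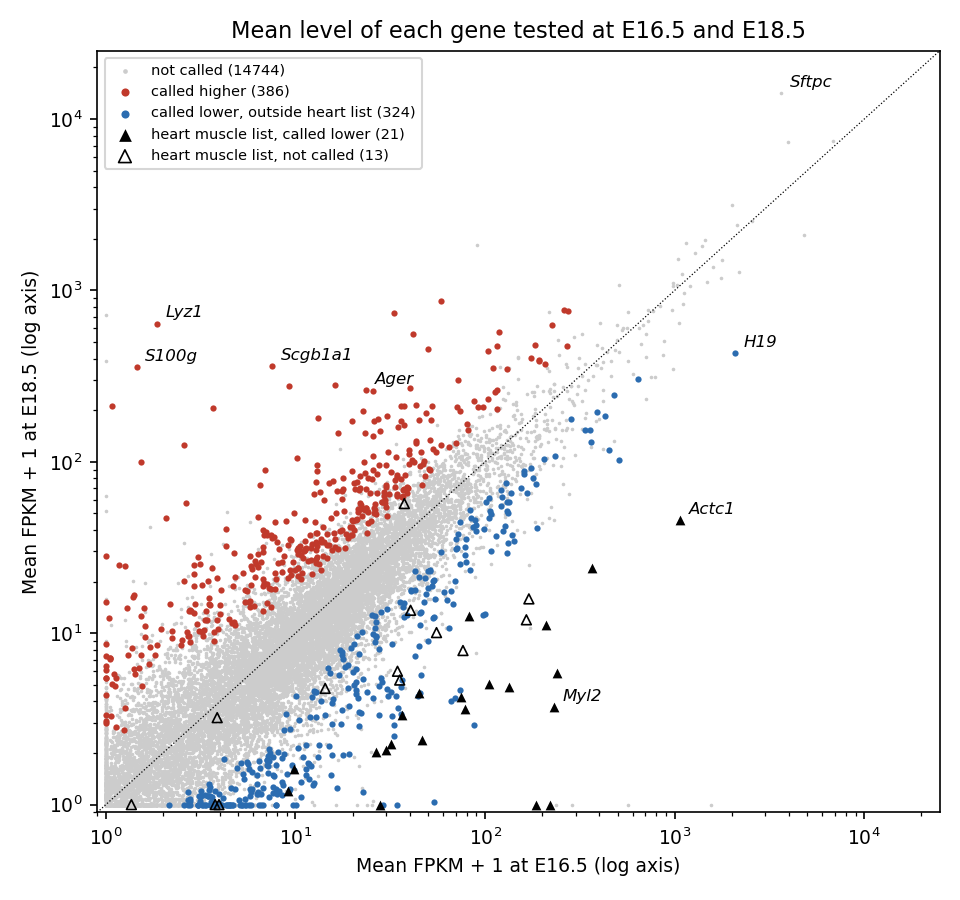
Mean FPKM + 1 of each of the 15488 genes tested at E16.5 (horizontal, log axis) and E18.5 (vertical, log axis), with 2 embryos a mean. Red points were called higher (386), blue points called lower outside the heart muscle list (324), filled triangles are the 21 heart muscle genes called lower and open triangles the 13 not called. Surfactant and lysozyme genes stand far above the dotted line of equal level, and most heart genes stand far below it.

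The largest increases were in secreted and surfactant-associated genes. Lyz1, a lysozyme also made by type 2 cells, had 1.37 and 0.364 at E16.5 and 869 and 410.0 at E18.5. S100g, a calcium-binding protein of the mature type 2 cell, had 0.903 and 0 at E16.5 and 444 and 266 at E18.5. Chil1, a chitinase-like secreted protein, had 0.163 and 0 at E16.5 and 207 and 214 at E18.5. All of these went from under 1.5 FPKM in both E16.5 embryos to over 200 in both E18.5 embryos, and in all 3 the call held whichever embryo was left out. Their differences on the log2(FPKM + 1) scale were 8.38 ± 0.49, 7.97 ± 0.53 and 7.62 ± 0.47, with adjusted p of 1.02e-08, 2.8e-08 and 1.28e-08. Lyz1 has a near-identical neighbour, Lyz2, and reads could have been divided between them. Lyz2 also rose, with 67.0 and 48.4 at E16.5 and 1243 and 501 at E18.5 (log2 difference 3.77, adjusted p = 3.35e-05).

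The rest of the 12 largest increases began with a surfactant protein and a chemokine. Sftpd, the collectin surfactant protein D, had 1.08 and 0 at E16.5 and 125 and 71.9 at E18.5. Cxcl15, the lung-specific chemokine lungkine, had 37.2 and 26.6 at E16.5 and 863 and 607 at E18.5, and Scd1, the stearoyl-CoA desaturase that makes monounsaturated fatty acids, had 8.52 and 7.97 at E16.5 and 309.8 and 245 at E18.5. Adjusted p values were 9.11e-08, 1.31e-07 and 9.32e-08. Scgb1a1, the club cell secretoglobin, had 9.46 and 3.62 at E16.5 and 307 and 416 at E18.5 (log2 difference 5.69 ± 0.71, adjusted p = 4.74e-05), and every postnatal library was higher still, at 513 to 5143. Traf1, an adaptor of TNF receptors, had 2.62 and 2.73 at E16.5 and 254 and 155 at E18.5. Atp6v1c2, a subunit of the proton pump that acidifies organelles, had 1.42 and 0.708 at E16.5 and 40.2 and 51.3 at E18.5. Vnn1, the pantetheinase vanin 1, had 1.2 and 2.10 at E16.5 and 63.6 and 49.1 at E18.5, which is above its whole postnatal range of 1.99 to 26.9. The embryos of the 2 ages were far apart in all of these, and leaving out any one of them left the genes called. Retnla, a resistin-like secreted protein, had 3.13 and 0 at E16.5 and 112 and 137 at E18.5 but varied from 0 to 131 after birth, and its adjusted p of 0.0434 was 0.0708 to 0.324 when any one embryo was left out. Inmt, a methyltransferase, was listed at 0 in both E16.5 embryos and had 43.5 and 11 at E18.5 (adjusted p = 0.0134). Its call was lost without E16.5-9 (0.066), E16.5-2 (0.0994) or E18.5-4 (0.207).

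The promoters of 5 genes of the distal epithelium that rose are shown here, since all of them were called with any embryo left out. Each run holds the 250 bases before the first RefSeq start, read 5′ to 3′ on the gene's strand from GRCm38.p6: S100g at chrX:162964600-162964849 (minus strand), Lyz1 at chr10:117292869-117293118 (minus), Cxcl15 at chr5:90794284-90794533 (plus), Sftpa1 at chr14:41131538-41131787 (plus) and Slc34a2 at chr5:53049103-53049352 (plus). Capitals mark matches to any of the 6 motifs described after the sequences.
S100g: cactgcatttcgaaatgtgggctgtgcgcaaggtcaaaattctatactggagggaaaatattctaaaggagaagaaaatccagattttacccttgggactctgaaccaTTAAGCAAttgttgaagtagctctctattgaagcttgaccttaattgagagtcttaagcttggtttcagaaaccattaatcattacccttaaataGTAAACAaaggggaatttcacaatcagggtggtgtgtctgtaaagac
Lyz1: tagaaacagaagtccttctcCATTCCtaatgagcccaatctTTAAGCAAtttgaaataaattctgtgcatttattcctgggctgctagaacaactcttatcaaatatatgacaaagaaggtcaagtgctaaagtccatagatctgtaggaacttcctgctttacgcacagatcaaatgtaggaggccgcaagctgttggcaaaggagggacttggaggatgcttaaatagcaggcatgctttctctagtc
Cxcl15: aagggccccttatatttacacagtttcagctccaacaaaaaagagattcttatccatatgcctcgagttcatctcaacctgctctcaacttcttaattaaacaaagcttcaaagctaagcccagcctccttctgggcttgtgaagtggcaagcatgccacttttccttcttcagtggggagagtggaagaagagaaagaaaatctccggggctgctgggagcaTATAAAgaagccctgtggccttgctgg
Sftpa1: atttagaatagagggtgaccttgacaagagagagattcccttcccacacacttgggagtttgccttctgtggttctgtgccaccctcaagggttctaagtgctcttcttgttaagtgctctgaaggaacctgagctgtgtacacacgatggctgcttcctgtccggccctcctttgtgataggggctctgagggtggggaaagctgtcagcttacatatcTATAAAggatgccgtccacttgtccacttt
Slc34a2: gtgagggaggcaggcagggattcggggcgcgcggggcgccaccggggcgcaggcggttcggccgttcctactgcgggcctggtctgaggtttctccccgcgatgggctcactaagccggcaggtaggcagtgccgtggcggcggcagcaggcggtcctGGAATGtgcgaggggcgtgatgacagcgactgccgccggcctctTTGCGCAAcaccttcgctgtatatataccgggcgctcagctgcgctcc
The letters searched, on both strands, were TTGCNNAA for C/EBP factors, TGTTTAC for forkhead factors, GGAATG for TEAD factors and TATAAA for the TATA box, besides the MEF2 site and the serum response factor site known as the CArG box. S100g holds a C/EBP match 142 to 135 bases before the start and a forkhead match 47 to 41 bases before it. Lyz1 holds a C/EBP match 209 to 202 bases and a TEAD match 230 to 225 bases before its start. Slc34a2 holds a C/EBP match 48 to 41 bases before its start, which reads the same on both strands, and a TEAD match 92 to 87 bases before it. Cxcl15 and Sftpa1 hold the TATA box 27 to 22 and 30 to 25 bases before their starts. C/EBP letters occurred in 10.7% of the promoters of 280 genes called higher, in 8.73% of 252 called lower and in 9.55% of all 27025 promoters of the same length. The shares for forkhead were 3.21%, 0.794% and 3.09%, for TEAD 11.4%, 14.7% and 12.6%, and for the TATA box 11.8%, 11.9% and 13.0%. Among the 12188 promoters of genes tested, the shares were 7.75% for C/EBP, 2.32% for forkhead, 11.1% for TEAD and 7.43% for the TATA box, lower than over all promoters for each. These matches describe letters only, and their counts were not tested.

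Most type 2 cell genes rose. Of 24 tested members of the list of type 2 cell and surfactant genes, 17 were higher and none lower. Both E18.5 embryos lay above both E16.5 embryos in 23, against 19.7% of all genes. The median log2 difference was 2.10 against -0.09 for all genes. Leaving out single embryos gave 13 calls without E16.5-2 or E18.5-4 and 15 without either of the others. Surfactant protein genes other than Sftpd, and the lamellar body genes that follow, lie outside the naming rule and were picked for their role after their values were seen. Sftpa1, which encodes surfactant protein A, had 15.6 and 14.8 at E16.5 and 329 and 231 at E18.5 (log2 difference 4.09 ± 0.33, adjusted p = 2.87e-07). Sftpb, which encodes the protein that spreads the lipid film, had 20.5 and 33.4 at E16.5 and 156 and 143 at E18.5 (log2 difference 2.47 ± 0.24, adjusted p = 3.32e-06). Both were detected in each E16.5 embryo, whereas S100g and Sftpd were listed at 0 in E16.5-2.

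Sftpc, the surfactant protein gene that defines the type 2 lineage, was the most abundant of them and did not pass the test. It had 5242 and 2066 at E16.5 and 12372 and 15834 at E18.5, with a log2 difference of 2.09 ± 0.88 and an adjusted p of 0.216. Both E18.5 embryos lay above both E16.5 embryos. Its postnatal values ran from 5349.9 to 21034, so that E16.5-9 lay just under that range and both E18.5 embryos inside it. Slc34a2, the phosphate transporter of the type 2 cell surface, had 44.0 and 37.1 at E16.5 and 566 and 550.4 at E18.5, and Lamp3, a lamellar body membrane protein, had 61.5 and 36.9 at E16.5 and 568 and 342 at E18.5. Abca3, which pumps lipid into lamellar bodies, had 28.2 and 21.2 at E16.5 and 77.4 and 99.4 at E18.5. Adjusted p values were 4.75e-07, 2.35e-05 and 7.23e-05, and these 3 calls held in each fit that left out an embryo. Cebpa, a transcription factor gene of type 2 cells, had 10.1 and 11.2 at E16.5 and 24.2 and 22.7 at E18.5 and did not pass (adjusted p = 0.0613).

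Lipid synthesis changed in fewer genes than the surfactant list. Of 24 genes of fatty acid, phospholipid and cholesterol synthesis, 5 were higher and none lower, with a median log2 difference of 0.35. Beside Scd1, Gpam, which starts glycerolipid synthesis, had 29.6 and 22 at E16.5 and 92.9 and 74.1 at E18.5, and Fasn, the fatty acid synthase, had 19.7 and 31.3 at E16.5 and 45.7 and 51.1 at E18.5. Acsl4, which activates long fatty acids, had 23.3 and 17.3 at E16.5 and 62.8 and 36.9 at E18.5. Scd1 alone was called in all of the fits that left out an embryo, and these fits called 3, 2, 1 and 3 of the list without E16.5-9, E16.5-2, E18.5-4 and E18.5-3. Gpam (adjusted p = 0.00421) was lost without E16.5-2 (0.0741) or E18.5-4 (0.0711). Acsl4 (0.0258) was lost without E16.5-2 (0.246) or E18.5-4 (0.329), and Fasn (0.0312) without E16.5-9 (0.261), E18.5-4 (0.119) or E18.5-3 (0.163). The 15 genes of glycogen storage and breakdown, from which the fetal epithelium draws carbon for surfactant lipid, held no call in either direction. Pygl, the liver form of glycogen phosphorylase, had 27.0 and 37.7 at E16.5 and 63.3 and 47.8 at E18.5 (adjusted p = 0.238), all above its median of 10.5 after birth.

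Type 1 cell genes rose alongside. Of 22 tested members, 15 were higher and 1 lower. In 20, against 19.7% of all genes, both E18.5 embryos lay above both E16.5 embryos, and the median log2 difference was 1.79. Each fit without 1 embryo called 13 or 14 of them higher. Ager, the receptor for advanced glycation end products and the best known type 1 marker, had 20.9 and 24.3 at E16.5 and 238 and 283 at E18.5 (log2 difference 3.47 ± 0.28, adjusted p = 3.32e-07). Clic5, an intracellular chloride channel protein, had 25.1 and 27.3 at E16.5 and 198 and 155 at E18.5. Col4a3, a basement membrane collagen chain of the alveolar wall, had 1.80 and 3.43 at E16.5 and 23.2 and 22.9 at E18.5. In all of these both E18.5 embryos lay well above both E16.5 embryos, and the calls held with any embryo left out. Vegfa, the endothelial growth factor that type 1 cells secrete, had 45.7 and 56.9 at E16.5 and 146 and 278 at E18.5 (log2 difference 1.96 ± 0.29, adjusted p = 0.00032), and only E18.5-3 reached the postnatal range of 275 to 677.

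Igfbp2, which marks type 1 cells of the mature lung, moved against the list. It had 23.3 and 20.3 at E16.5 and 2.81 and 6.00 at E18.5 (log2 difference -2.14 ± 0.57, adjusted p = 0.0372), and its call was lost whichever embryo was left out, with adjusted p of 0.0543 to 0.317. Hopx, a homeodomain gene of type 1 cells chosen after its values were seen, had 40.6 and 30.9 at E16.5 and 104 and 102 at E18.5 and did not pass (adjusted p = 0.0935).

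Several genes for the movement of sodium and water rose. Of 16 ion and water transport genes, 7 were higher and none lower, with a median log2 difference of 1.32. Aqp5, the water channel of the type 1 cell surface, had 0.539 and 0.287 at E16.5 and 8.15 and 23.4 at E18.5, still below the lowest postnatal library at 30.6. Both Scnn1a and Scnn1g, subunits of the epithelial sodium channel, which draws liquid out of the air spaces, rose as well. Scnn1a had 2.49 and 1.64 at E16.5 and 24.4 and 29 at E18.5 and Scnn1g had 2.97 and 1.33 at E16.5 and 21.2 and 27.1 at E18.5, with adjusted p of 1.12e-05 and 1.65e-05. The remaining subunit, Scnn1b, named after its values were seen, had 1.16 and 1.40 at E16.5 and 5.02 and 7.40 at E18.5 and did not pass (adjusted p = 0.0793). Aqp1, the water channel of capillaries, had 25.9 and 24.3 at E16.5 and 176 and 170.4 at E18.5 (log2 difference 2.74 ± 0.32, adjusted p = 2.59e-05). Calls for Aqp5, Scnn1a, Scnn1g and Aqp1 held with any embryo left out, and without E16.5-2 or E18.5-3 they were the 4 calls left in the list.

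**Figure D2:**
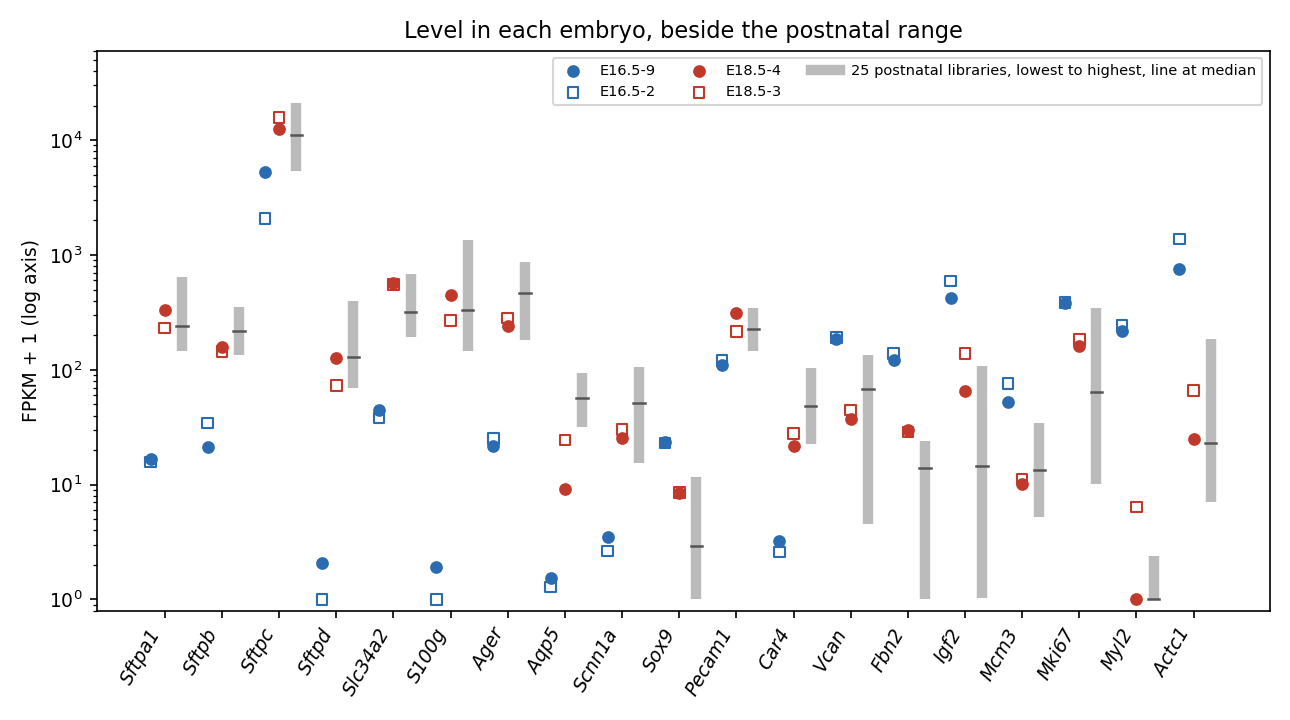
FPKM + 1 (log axis) of 19 genes in each embryo, with E16.5 in blue and E18.5 in red, a circle for embryos 9 and 4 and a square for embryos 2 and 3. The grey bar beside each gene spans the 25 postnatal libraries and the dark line is their median. S100g and Sftpd were at or near 0 at E16.5 and inside the postnatal bar at E18.5, whereas Fbn2, Igf2 and Myl2 were above the postnatal bar at E16.5.

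Lists of the distal tip progenitor and of lung transcription factors held few calls. Their shares are to be read against 2.49% higher and 2.23% lower over all genes tested. Of 18 genes of the tip and its fibroblast growth factor response, 1 was higher and 1 lower, and the median log2 difference was -0.00. Cpm, a carboxypeptidase also found on alveolar epithelium, had 16.4 and 16.9 at E16.5 and 66.1 and 67.0 at E18.5 and rose by 1.94 on the log2 scale (adjusted p = 0.000909), in each fit that left out an embryo. Mycn, a growth regulator of tip cells, had 6.35 and 6.87 at E16.5 and 0.0780 and 1.69 at E18.5 and fell (adjusted p = 0.0266), a call lost without E16.5-9 (0.0896), E16.5-2 (0.154) or E18.5-4 (0.333). Sox9, the transcription factor gene that defines the tip, had 22.6 and 22.1 at E16.5 and 7.44 and 7.52 at E18.5. Its embryos agreed closely within each age and were about 3 times apart between ages, yet the fit over all libraries gave a log2 difference of -1.46 ± 0.56 and an adjusted p of 0.163. Etv5, a target of fibroblast growth factor signaling chosen after its values were seen, overlapped between ages, at 48.3 and 30.8 at E16.5 and 39.9 and 32.7 at E18.5. Among 44 lung transcription factor genes, Wwtr1, which encodes the Hippo pathway effector Taz, had 41.7 and 41.0 at E16.5 and 119 and 79.5 at E18.5, and Epas1, which encodes HIF-2α, had 16.5 and 28.7 at E16.5 and 41.3 and 63.8 at E18.5. These were the 2 higher calls of that list (adjusted p = 0.00969 and 0.0308), and Mycn was its lower call. The Wwtr1 call was lost without E16.5-2 (0.0787) or E18.5-4 (0.184), and the Epas1 call without E16.5-9 (0.256) or E18.5-3 (0.251).

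Airway lists gave fewer calls. In the club cell list Scgb1a1 was the 1 call among 10 genes. Scgb3a2, another secretoglobin, had 148 and 283 at E16.5 and 869 and 619 at E18.5 without passing (adjusted p = 0.415). Of 14 ciliated cell genes none was called, while 9 had both E18.5 embryos higher, against 19.7% of all genes. The median log2 difference of the list was 1.32. Rsph4a, a radial spoke protein of cilia, had 4.68 and 7.63 at E16.5 and 16.7 and 16.3 at E18.5 (adjusted p = 0.0824).

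Endothelial genes rose in part. Of 25 pan-endothelial genes, 8 were higher and none lower, with a median log2 difference of 0.58. Calcrl, the receptor chain for adrenomedullin, had 89.9 and 52.4 at E16.5 and 344 and 253 at E18.5 (log2 difference 2.09 ± 0.34, adjusted p = 0.00088). Kdr, the main receptor for Vegfa, had 44.2 and 48.6 at E16.5 and 104 and 96.3 at E18.5 (log2 difference 1.10 ± 0.20, adjusted p = 0.00213). Emcn, a sialomucin of capillaries and veins, had 30.4 and 9.99 at E16.5 and 69.1 and 82.1 at E18.5, and both E18.5 embryos exceeded all 27 other libraries. Pecam1, the adhesion molecule that defines endothelium, had 110.1 and 119.9 at E16.5 and 310.3 and 215 at E18.5 (log2 difference 1.16 ± 0.25, adjusted p = 0.00861). Calls for Calcrl and Kdr held in each fit that left out an embryo. Emcn (adjusted p = 0.00365) was lost without E16.5-2 (0.106), and Pecam1 without E16.5-9 (0.0565), E16.5-2 (0.051) or E18.5-4 (0.162). Tek, the angiopoietin receptor, chosen after its values were seen, had 30.5 and 33.9 at E16.5 and 34.8 and 34.1 at E18.5 and did not pass (log2 difference 0.10 ± 0.23, adjusted p = 0.914).

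The aerocyte, the large capillary cell of gas exchange, was represented by 10 genes, of which 4 were higher and none lower. Car4, a carbonic anhydrase on its surface, had 2.21 and 1.58 at E16.5 and 20.9 and 27.0 at E18.5 (log2 difference 3.10 ± 0.31, adjusted p = 3.32e-06), and Prx, periaxin, had 4.29 and 5.33 at E16.5 and 20.5 and 26.9 at E18.5 (log2 difference 2.08 ± 0.26, adjusted p = 5.27e-05). Both genes rose whichever embryo was left out and stood near or below the low end of the postnatal libraries at E18.5, where Car4 began at 21.5 and Prx at 34.0. Kitl, the ligand of Kit, had 28.5 and 28.3 at E16.5 and 73.4 and 50.3 at E18.5, and Cyp4b1, a cytochrome P450, had 3.48 and 1.51 at E16.5 and 21.3 and 6.15 at E18.5. The Kitl call (adjusted p = 0.0198) was lost without E16.5-9 (0.0794), E16.5-2 (0.123) or E18.5-4 (0.263), and the Cyp4b1 call (0.0286) without E16.5-2 (0.295) or E18.5-4 (0.412). In the lymphatic list of 7 genes, Pdpn was the 1 call and it is a type 1 cell gene too, at 20.9 and 24.1 at E16.5 and 59.8 and 76.5 at E18.5 (adjusted p = 0.00689), lost without E16.5-9 (0.0523) or E18.5-3 (0.0705).

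The mesenchyme moved in both directions. Of 14 lipofibroblast and matrix fibroblast genes, 5 were higher and none lower, with a median log2 difference of 1.01. Limch1, which activates nonmuscle myosin, had 53.8 and 42.1 at E16.5 and 190.4 and 194 at E18.5 (log2 difference 1.99 ± 0.22, adjusted p = 1.6e-05). Macf1, a spectraplakin that links actin and microtubules, had 222 and 227 at E16.5 and 579.9 and 681 at E18.5 (log2 difference 1.48 ± 0.24, adjusted p = 0.00092). Both calls held in each fit that left out an embryo. Mfap4, an elastic fiber protein, had 245 and 298 at E16.5 and 655 and 854 at E18.5, and its call (adjusted p = 0.00667) was lost without E16.5-9 (0.0573) or E18.5-3 (0.0695). Among 16 smooth muscle and myofibroblast genes, 2 were higher and 1 lower. Enpp2, the enzyme autotaxin, had 12.0 and 10.9 at E16.5 and 89.8 and 37.9 at E18.5 and Hhip, a hedgehog-binding protein, had 59.1 and 44.6 at E16.5 and 127 and 108 at E18.5, while Des, the muscle filament protein desmin, fell, at 19.5 and 18.5 at E16.5 and 3.91 and 5.96 at E18.5. Adjusted p values were 0.000711, 0.00983 and 0.00572. Both E16.5 libraries held heart muscle transcript, described below, and its part in the Des values was not tested. Enpp2 was called in each fit that left out an embryo, Hhip was lost without E16.5-2 (0.143) or E18.5-4 (0.119), and Des without E18.5-4 (0.0986). Acta2, the smooth muscle actin that defines the list, had 152 and 187 at E16.5 and 96.8 and 80.8 at E18.5 and did not pass (log2 difference -0.92 ± 0.39, adjusted p = 0.213). The pericyte list of 12 genes had 2 higher calls, Gucy1b1 and Gucy1a1, the subunits of the nitric oxide receptor. Gucy1b1 had 46.7 and 43.3 at E16.5 and 147 and 79.7 at E18.5, and Gucy1a1 had 69.3 and 69.0 at E16.5 and 139 and 117 at E18.5 (adjusted p = 0.0097 and 0.0196). Gucy1b1 was lost without E16.5-2 (0.0914) or E18.5-4 (0.22), and Gucy1a1 without E16.5-9 (0.0774), E16.5-2 (0.119) or E18.5-4 (0.202).

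Several matrix genes of the early mesenchyme fell. Of 14 fetal and provisional matrix genes, 5 were lower and 2 higher, with a median log2 difference of -0.77. The lower calls include the cartilage collagen genes Col2a1 and Col9a1, at means of only 4.73 and 2.18 FPKM at E16.5. Both are counted again in the cartilage list below. Vcan, the large proteoglycan versican of loose fetal mesenchyme, had 185 and 189.9 at E16.5 and 36.4 and 43.5 at E18.5 (log2 difference -2.21 ± 0.30, adjusted p = 0.000164). Lum, the collagen-binding proteoglycan lumican, had 32.0 and 32.3 at E16.5 and 0.797 and 3.03 at E18.5 and was among the 12 largest decreases (log2 difference -3.62 ± 0.76, adjusted p = 0.00776), a call lost without E16.5-2 (0.0629) or E18.5-4 (0.13). Against these, Spon1, a secreted matrix protein, had 12.6 and 18.1 at E16.5 and 46.7 and 51.8 at E18.5, and Fn1, fibronectin, had 133 and 233 at E16.5 and 461 and 495 at E18.5 (adjusted p = 8.16e-05 and 0.00706). The calls for Vcan and Spon1 held in each fit that left out an embryo, while Fn1 was lost without E16.5-9 (0.103) or E18.5-3 (0.0509).

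Chains of fibrillar collagen fell and elastin rose. In the list of 20 fibrillar collagen and elastic fiber genes, 4 were lower and 1 higher, with a median log2 difference of -0.42. Fbn2, the fetal fibrillin, had 122 and 137 at E16.5 and 28.8 and 27.7 at E18.5 (log2 difference -2.15 ± 0.36, adjusted p = 0.00125), and its postnatal values were at most 23.0. Col1a1, a chain of type I collagen, had 76.3 and 151 at E16.5 and 31.3 and 40.3 at E18.5 (log2 difference -1.57 ± 0.36, adjusted p = 0.0148), and Col3a1, type III collagen, had 472 and 385 at E16.5 and 167 and 202 at E18.5 (adjusted p = 0.0106). The low level of Col1a1 at E18.5 was close to that of P23 and P28 and lay below the mean of every age from P0.5 to P19. Eln, elastin, had 110.0 and 114 at E16.5 and 199 and 312 at E18.5 (log2 difference 1.15 ± 0.32, adjusted p = 0.0422). Fbn2 was called in each fit that left out an embryo, and with a pseudocount of 0.1 it was not (adjusted p = 0.0941). Col1a1 was lost without E16.5-2 (0.263) or E18.5-4 (0.167), Col3a1 without E16.5-9 (0.0871) or E18.5-4 (0.132), and Eln in each of the 4 fits, with adjusted p of 0.0533 to 0.301. Of 19 basement membrane genes, 5 were higher and none lower. Beside Col4a3, its partner chain Col4a4 had 7.78 and 7.25 at E16.5 and 24.0 and 26.1 at E18.5 (adjusted p = 0.000986), and Lama3, a laminin chain, had 24.6 and 25.7 at E16.5 and 53.4 and 48.6 at E18.5 (adjusted p = 0.00864), the latter lost without E16.5-2 (0.0541) or E18.5-4 (0.0964).

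**Figure D3:**
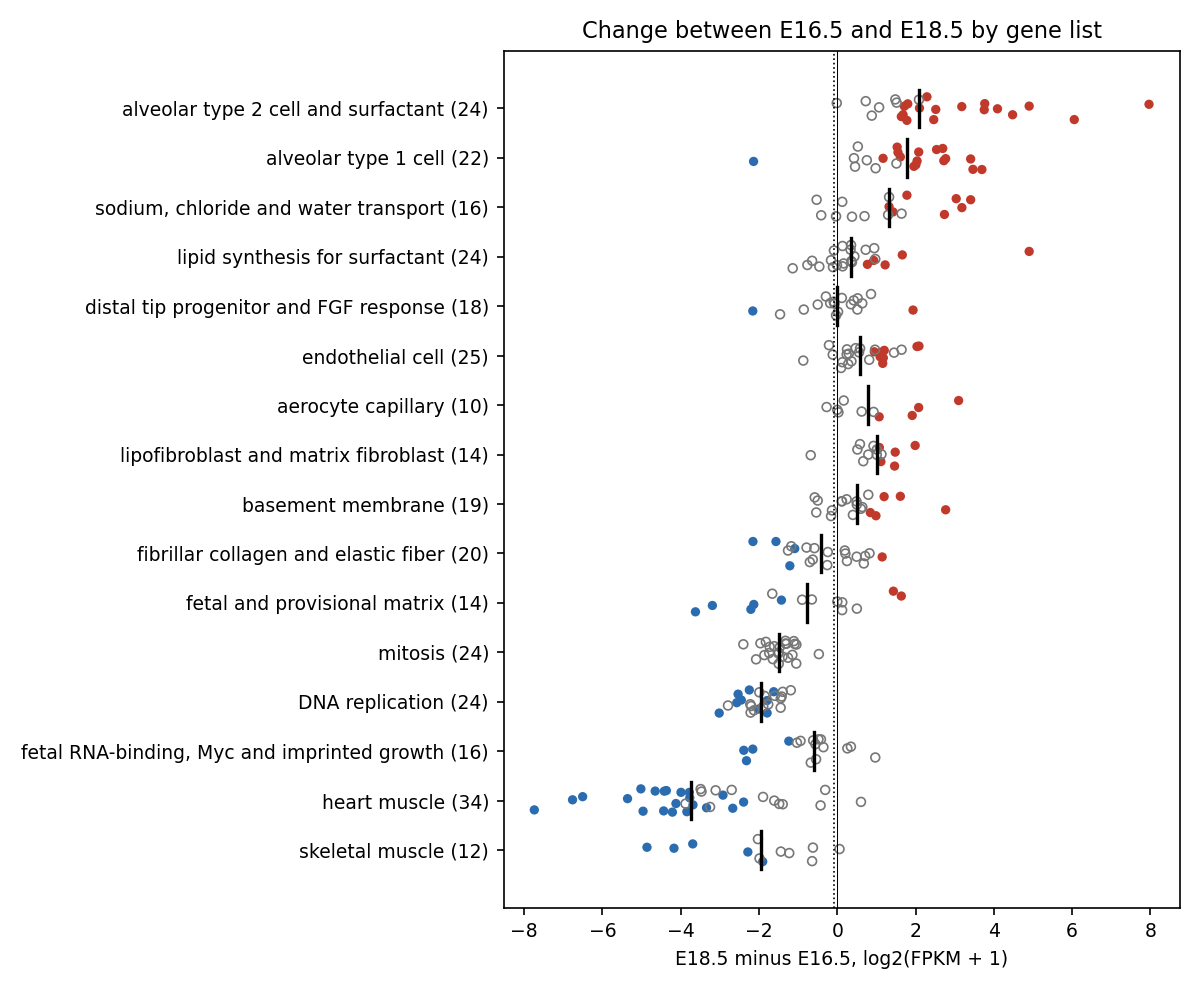
Difference between E18.5 and E16.5 in log2(FPKM + 1) for each tested member of 16 gene lists, with the number of members in brackets. Filled points were called (red higher, blue lower), open points were not, black bars are list medians and the dotted line is the median of all genes at -0.09. The type 2 and type 1 cell lists lie to the right, mitosis has no filled point although its members lie to the left, and the heart list extends furthest left.

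Some genes of DNA replication fell, and no gene of mitosis was called. Of 24 replication genes, 9 were lower and none higher. In 23, against 27.6% of all genes, both E18.5 embryos lay below both E16.5 embryos, and the median log2 difference was -1.94. Mcm3, a subunit of the helicase that opens replication origins, had 51.3 and 75.1 at E16.5 and 9.11 and 10.2 at E18.5 (log2 difference -2.57 ± 0.45, adjusted p = 0.00176). Mcm5, of the same helicase, had 38.3 and 27.5 at E16.5 and 2.15 and 4.45 at E18.5 (log2 difference -3.02 ± 0.56, adjusted p = 0.003). Mcm4 had 68.8 and 68.6 at E16.5 and 17.5 and 20.8 at E18.5, and Lig1, the ligase that joins replicated fragments, had 18.9 and 26.7 at E16.5 and 2.09 and 4.96 at E18.5. Mcm3 alone was called in each fit that left out an embryo, and the fits without E16.5-9, E16.5-2, E18.5-4 and E18.5-3 called 3, 2, 1 and 3 genes of the list. With a pseudocount of 0.1 the list held 5 calls. Mcm5 was lost without E18.5-4 (0.0647). Mcm4 (adjusted p = 0.0147) was lost in each of the 4 fits (0.0554 to 0.14), and Lig1 (0.0155) without E16.5-2 (0.152) or E18.5-4 (0.209).

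Of 24 mitosis genes none was called, 23 had both E18.5 embryos lower, against 27.6% of all genes, and the median log2 difference was -1.48. Mki67, the proliferation antigen that defines dividing cells, had 377 and 386 at E16.5 and 162 and 183 at E18.5, a log2 difference of -1.15 ± 0.64 and an adjusted p of 0.392. Ttk, a spindle checkpoint kinase, came closest to the threshold, at 13.9 and 16.7 at E16.5 and 2.29 and 4.27 at E18.5 (adjusted p = 0.0561). The embryos of each age agreed closely in Mki67, but the spread that enters the test is that of all 15 ages, and the 2 libraries of P0.5 lay at 32.2 and 239.8 FPKM. Of 15 genes for D cyclins and cell cycle inhibitors, Ccnd2, a D cyclin that drives entry into the cycle, was lower, at 101 and 77.5 at E16.5 and 33.4 and 43.0 at E18.5 (log2 difference -1.20 ± 0.20, adjusted p = 0.00137), in each fit that left out an embryo. Btg2, an antiproliferative gene, was higher, at 26.6 and 29.8 at E16.5 and 57.4 and 74.5 at E18.5 (adjusted p = 0.0226), and its call was lost whichever embryo was left out, with adjusted p of 0.0649 to 0.171.

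Several fetal growth genes fell. Of 16 tested genes of fetal RNA-binding proteins, Myc factors and imprinted growth control, 4 were lower and none higher, with a median log2 difference of -0.59. H19, an imprinted noncoding RNA, had 2195 and 1986 at E16.5 and 337 and 518 at E18.5 (log2 difference -2.32 ± 0.38, adjusted p = 0.00104). Igf2, the fetal insulin-like growth factor next to it, had 419 and 594 at E16.5 and 64.7 and 138 at E18.5 (log2 difference -2.39 ± 0.50, adjusted p = 0.00804). Grb10, an imprinted adaptor that restrains growth, had 347 and 369.9 at E16.5 and 149 and 154 at E18.5 (log2 difference -1.24 ± 0.23, adjusted p = 0.00253). For H19 and Grb10 all 4 embryos lay above the highest postnatal library, at 289 and 111, and their calls held in each fit that left out an embryo. The Igf2 call was lost without E16.5-2 (0.108) or E18.5-4 (0.163).

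**Figure D4:**
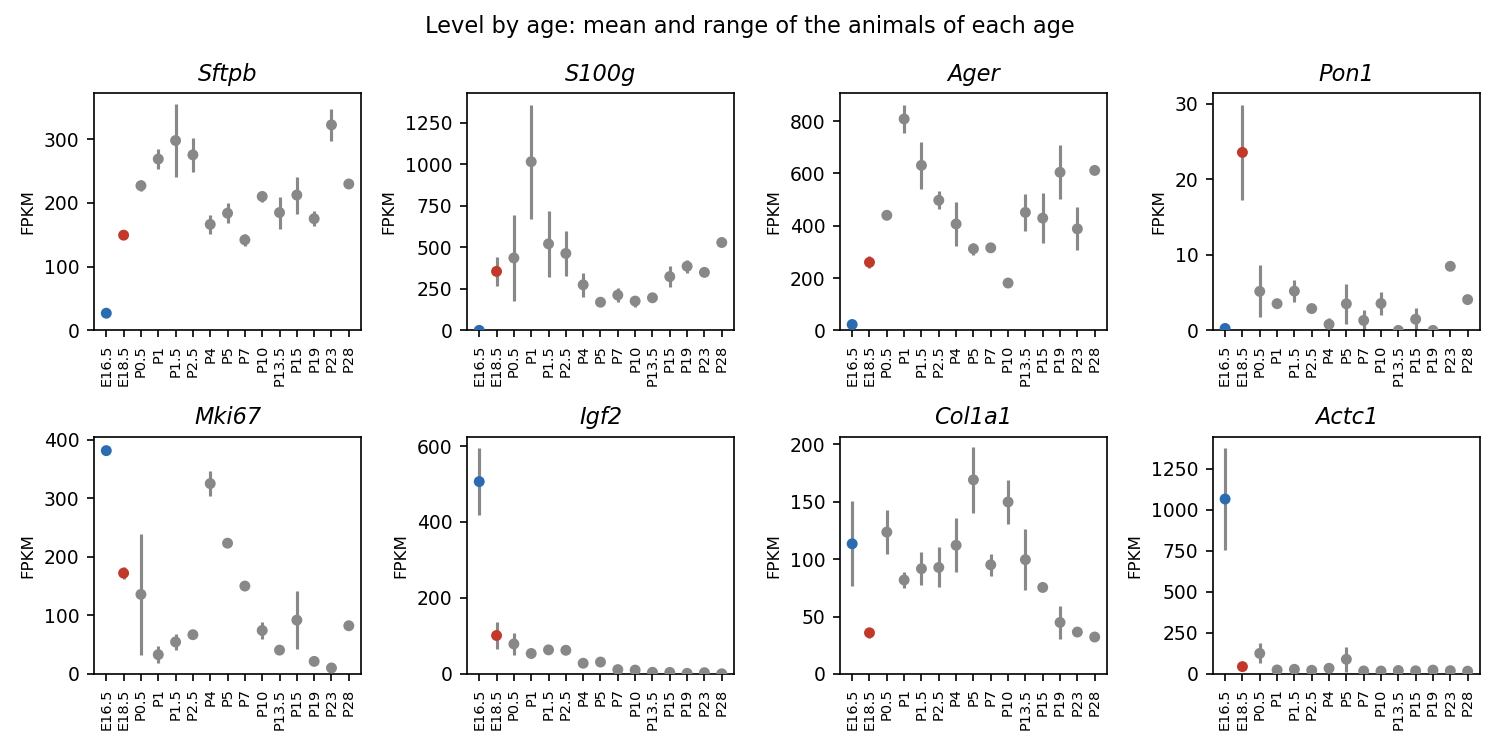
FPKM of 8 genes at each of the 15 ages. Points are the mean and lines the lowest and highest animal of an age (2 animals, 1 at P28), with E16.5 in blue and E18.5 in red. Sftpb, S100g and Ager step up between the 2 fetal ages and go on to higher means by P1, Pon1 peaks at E18.5, and Igf2 and Actc1 are highest at E16.5.

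Signaling lists held few calls, 0 to 2 in each direction, at shares to be read against the 2.49% and 2.23% of all genes. Among 16 hedgehog genes, Smo, the signal transducer, was lower, at 54.8 and 51.3 at E16.5 and 16.0 and 22.8 at E18.5 (log2 difference -1.42 ± 0.25, adjusted p = 0.00198), as was Cdon, a coreceptor, at 22 and 19.5 at E16.5 and 6.42 and 6.66 at E18.5 (adjusted p = 0.0239), while the antagonist Hhip was higher. Smo was lost without E18.5-4 (0.0541), and Cdon was lost in each of the 4 fits (0.1 to 0.158). Among 31 TGF-beta and BMP genes, Bmp7, a BMP ligand, had 2.29 and 4.46 at E16.5 and was listed at 0 in both E18.5 embryos (adjusted p = 0.00125), and Acvrl1, an endothelial BMP receptor, had 22.1 and 16.1 at E16.5 and 40.3 and 47.9 at E18.5 (adjusted p = 0.00951), the latter lost without E16.5-2 (0.144) or E18.5-3 (0.0862). Bmp7 was called in each fit that left out an embryo but drops out where an FPKM of at least 5 is required. Of 32 Wnt genes, Nkd1, an inducible antagonist, was the 1 call, at 6.80 and 6.07 at E16.5 and 13.9 and 20.6 at E18.5 (adjusted p = 0.0194), lost without E16.5-9 (0.0622), E16.5-2 (0.144) or E18.5-3 (0.183). Of 16 Notch genes, the target Heyl was the 1 call, at 7.34 and 10.9 at E16.5 and 3.88 and 2.72 at E18.5 (adjusted p = 0.0414), lost in each of the 4 fits (0.0503 to 0.33). Of 16 retinoid genes, the retinaldehyde reductase Dhrs3 was the 1 call, at 11.6 and 15.8 at E16.5 and 35.2 and 28.6 at E18.5 (adjusted p = 0.0414), lost in each of the 4 fits (0.0892 to 0.273).

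The genes of response to glucocorticoid, the hormone that matures the fetal lung, gave 2 higher calls of 18 and none lower. In 10 of the 18, against 19.7% of all genes, both E18.5 embryos were higher, and the median log2 difference was 0.71. Klf9, a transcription factor gene induced by glucocorticoid, had 6.46 and 6.89 at E16.5 and 32.7 and 38.1 at E18.5 (log2 difference 2.24 ± 0.36, adjusted p = 0.00092) and was called in each fit that left out an embryo. Hsd11b1, the enzyme that makes active glucocorticoid in tissue, had 54.1 and 16.0 at E16.5 and 122 and 219 at E18.5 (adjusted p = 0.00424), and its call was lost without E16.5-2 (0.125) or E18.5-3 (0.0657). Of 20 hypoxia-induced and glycolysis genes Vegfa was the 1 call. Bnip3, a mitophagy receptor induced by low oxygen, had 21.5 and 29 at E16.5 and 100.1 and 47.6 at E18.5 (adjusted p = 0.0579). None of the 14 immediate early genes was called in either direction.

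The largest decreases belong to muscle. The heart muscle list was set apart with its high level in both E16.5 libraries already known. Its counts and adjusted p values therefore describe that difference and are no independent test of it. In the heart muscle list, 21 of 34 tested genes were lower and none higher. In 31, against 27.6% of all genes, both E18.5 embryos lay below both E16.5 embryos, and the median log2 difference was -3.73. The summed FPKM of the list was 2696 and 5031 at E16.5 and 176 and 319.5 at E18.5, where the 25 postnatal libraries ran from 93.7 to 1010.4 with a median of 177. Both E16.5 libraries thus held more heart transcript than any other library, and both E18.5 libraries lay within the postnatal range. By level at E16.5 the leading genes were Actc1, cardiac actin, at 757 and 1377 at E16.5 and 24.0 and 65.0 at E18.5, and Myh7, the slow myosin heavy chain, at 198 and 530.2 at E16.5 and 26.5 and 19.8 at E18.5. Myl2, the ventricular light chain, had 216 and 242 at E16.5 and 0 and 5.40 at E18.5, and Ttn, the giant spring protein titin, had 132 and 286 at E16.5 and 3.63 and 16.6 at E18.5. Myl4, the atrial light chain, had 169 and 307 at E16.5 and 3.00 and 6.77 at E18.5, and Myl3, a ventricular light chain, had 166 and 273 at E16.5 and was listed at 0 in both E18.5 embryos. Nppa, the atrial natriuretic peptide, had 34.0 and 336 at E16.5 and was listed at 0 in both E18.5 embryos. Myh6, the alpha myosin that defines the list, had 94.9 and 244 at E16.5 and 7.11 and 22.6 at E18.5 and did not pass (adjusted p = 0.205), with postnatal values from 0 to 146.

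**Figure D5:**
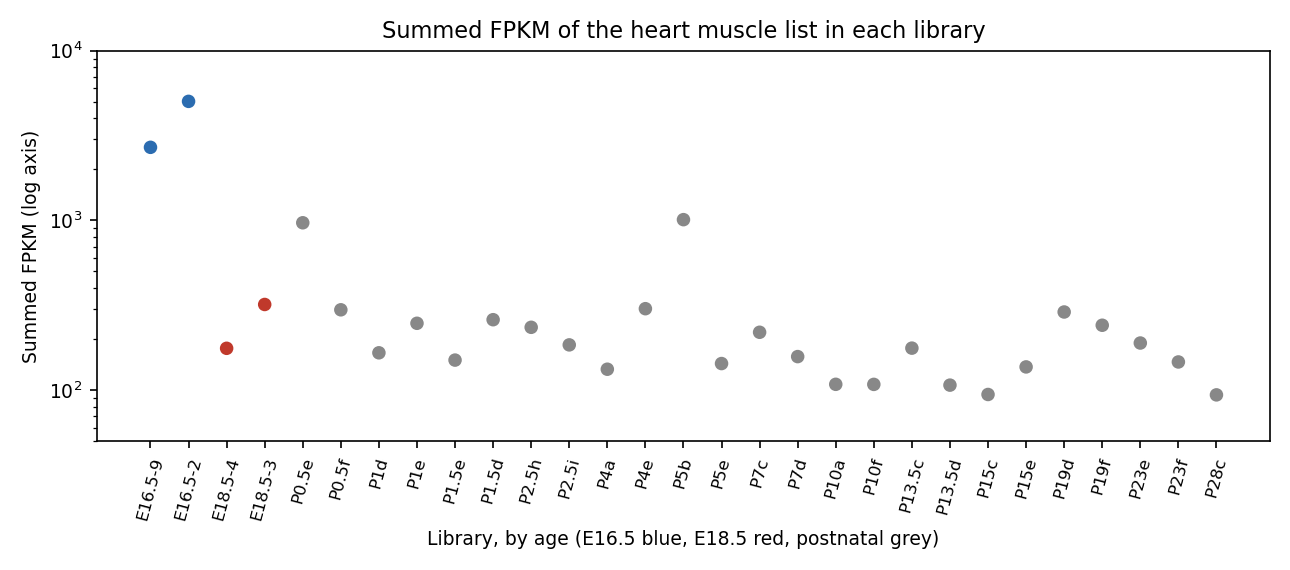
Summed FPKM (log axis) of the heart muscle list in each of the 29 libraries, ordered by age, with E16.5 in blue, E18.5 in red and postnatal libraries in grey. The 2 E16.5 libraries, at 2696 and 5031, stand above all others, of which P5b at 1010.4 and P0.5e at 968 are the highest.

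Adjusted p values for the heart genes were 5.49e-07 for Myl2, 1.65e-05 for Nppa, 0.000101 for Myh7 and 0.000239 for Myl3, which were called in each fit that left out an embryo. Those for Actc1, Myl4 and Ttn were 0.00969, 0.00431 and 0.00862. Actc1 was lost without E16.5-2 (0.118) or E18.5-4 (0.149), Myl4 without E16.5-2 (0.0673) or E18.5-4 (0.0715), and Ttn without E16.5-2 (0.123) or E18.5-4 (0.167). The fits without E16.5-2 and without E18.5-4 called 8 genes of the list, those without E16.5-9 and E18.5-3 called 18 and 17, and a pseudocount of 0.1 called 11. Between the E16.5 embryos, the heart genes were higher in E16.5-2 by a median factor of 1.86, with 30 of 34 above 1, where 9339 other genes had a median factor of 1.05. The promoter of Actc1, the most abundant of them, is shown because the CArG box before its start is a textbook element of muscle genes. It lies at chr2:114052876-114053125 on the minus strand, with the CArG box in capitals, 47 to 38 bases before the start.
Actc1: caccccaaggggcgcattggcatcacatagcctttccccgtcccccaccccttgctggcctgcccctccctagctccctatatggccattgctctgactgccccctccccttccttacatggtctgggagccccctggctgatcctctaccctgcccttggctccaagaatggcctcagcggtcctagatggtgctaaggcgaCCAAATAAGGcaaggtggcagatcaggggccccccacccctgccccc
A CArG box was found in 3.17% of the promoters of 252 genes called lower, 2.50% of 280 called higher and 1.40% of all promoters, and the MEF2 site in 5.16%, 2.86% and 3.01%. Among promoters of genes tested the shares were 1.18% for the CArG box and 1.76% for the MEF2 site, and the differences were not tested.

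Skeletal muscle and other tissues changed beside the heart list. Of 12 skeletal muscle genes, 5 were lower and none higher. Acta1, skeletal actin, which the fetal heart expresses too, had 13.1 and 30.4 at E16.5 and 0 and 0.361 at E18.5 (log2 difference -4.17 ± 0.46, adjusted p = 1.43e-05) and was called in each fit that left out an embryo. Of the 12 largest decreases outside the muscle lists, 9, as background, are nonetheless known from muscle: Hspb7, Bmp10, Trim55, Myl1, Popdc2, Eno3, Itgb1bp2, Srl and Cpt1b. Bmp10, an atrial ligand, had 3.27 and 63.1 at E16.5 and was listed at 0 in both E18.5 embryos (adjusted p = 0.00125), and Myl1, a light chain of fast muscle, had 43.3 and 86.2 at E16.5 and 3.62 and 2.40 at E18.5 (adjusted p = 0.00142). Both were called with any embryo left out. Myl1 was not called with a pseudocount of 0.1 (0.174). Bmp10, at most 0.254 after birth, passed the filter on low values through the E16.5 embryos alone, so it had to be higher there, and it was not called in the fit of E16.5 to P2.5 (0.0604). Hspb7, a small heat shock protein of heart, had 55.9 and 90.1 at E16.5 and 1.75 and 5.61 at E18.5 (adjusted p = 0.00757), and Srl, sarcalumenin, had 44.8 and 41.3 at E16.5 and 2.23 and 4.42 at E18.5 (adjusted p = 0.00249). Hspb7 was lost without E16.5-2 (0.0955) or E18.5-4 (0.126), and Srl without E18.5-4 (0.0529). Trim55 was lost without E16.5-2 (0.0582) or E18.5-4 (0.0545), Popdc2 without E16.5-2 (0.131) or E18.5-4 (0.163), and Eno3 without E16.5-2 (0.0867) or E18.5-4 (0.109). Itgb1bp2 was lost without E16.5-2 (0.066) or E18.5-3 (0.111), and Cpt1b without E16.5-2 (0.244) or E18.5-4 (0.142). Besides Lum, the last of the 12 are Eno1b and H2bu2, which have near-identical copies elsewhere in the genome, so that their values are uncertain. Eno1b was lost in each of the 4 fits (0.0744 to 0.0972), and H2bu2 without E16.5-2 (0.126), E18.5-4 (0.0801) or E18.5-3 (0.0568).

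To mark genes that follow heart muscle, each gene's log2(FPKM + 1) was correlated with the mean of the heart list over the 25 postnatal libraries, which the comparison does not use for its means. Over these libraries, which share capture and sequencing, a correlation of at least 0.5 was found for 24 of the 34 heart genes, for 2.21% of all genes tested and for 1 of the 386 genes called higher. Of the 345 genes called lower, 86 reached it. Of the 319 called lower outside the muscle lists, 66 reached it (20.7%) and 253 did not. The mark leans on P5b and P0.5e, the 2 libraries farthest from the median in heart sum. Without them, a check chosen after seeing the data, 18 of the heart genes, 3.25% of all genes and 29 of the 319 (9.09%) reached it. The part of heart transcript in any one lower call was not tested. Vcan, Fbn2, Grb10, Mcm3 and Ccnd2 were called lower and did not reach the mark (r = 0.48, 0.45, 0.41, 0.17 and 0.26). H19, Lum and Igf2 reached it (r = 0.53, 0.51 and 0.59), as did Cdon of the hedgehog list and Nefl of the neural list (r = 0.65 and 0.55). The mark does not cleanly part heart genes from others, since Myh7 (r = 0.37) and Nppa (r = 0.45) of the heart list missed it. The correlation did not allow for age, and mean Igf2 fell from 78.9 FPKM at P0.5 to 0.347 at P28.

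The cartilage, neural and mesothelium lists held calls as well. Of 9 cartilage genes, 4 were lower and none higher, with summed FPKM of 85.5 and 62.1 at E16.5 and 50.7 and 36.7 at E18.5. Matn3, a matrilin, had 1.97 and 1.44 at E16.5 and was listed at 0 in both E18.5 embryos (adjusted p = 0.00305), and Col2a1, the cartilage collagen, had 2.60 and 6.86 at E16.5 and 0 and 0.470 at E18.5 (adjusted p = 0.00319), the latter lost without E16.5-2 (0.0758) or E18.5-4 (0.0672). Of 13 neural genes, 5 were lower and none higher, led by Nefl, a neurofilament chain, at 2.55 and 2.79 against 0 listed in both E18.5 embryos (adjusted p = 0.00358). Matn3 and Nefl drop out where 1 FPKM is required in 4 libraries. These are low levels, and with an FPKM of at least 5 required in 2 libraries none of the cartilage list and 1 gene of the neural list was called. In the mesothelium list of 9 genes, Msln, mesothelin, was higher, at 9.99 and 13.8 at E16.5 and 84.0 and 91.4 at E18.5 (log2 difference 2.79 ± 0.55, adjusted p = 0.00452), in each fit that left out an embryo but not with a pseudocount of 0.1 (0.124). Lrrn4 and Wt1, which mark the same layer, were lower. Lrrn4 had 4.71 and 7.74 at E16.5 and 0.228 and 0 at E18.5, and Wt1 had 3.84 and 2.74 at E16.5 and was listed at 0 in both E18.5 embryos (adjusted p = 0.0167 and 0.0371). Lrrn4 was lost without E16.5-2 (0.162), E18.5-4 (0.0908) or E18.5-3 (0.109), and Wt1 in each of the 4 fits (0.124 to 0.19).

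Liver transcript was found in 1 embryo. The summed FPKM of 14 liver genes was 106 and 0.198 at E16.5 and 1.16 and 1.21 at E18.5. Nearly all of it lay in E16.5-9, and none of the 13 tested liver genes was called, although without E16.5-2 the plasma protein genes Afp, Alb and Fgg were called lower (adjusted p = 0.0039, 0.0437 and 0.0184). T cell transcript was likewise found mainly in 1 embryo: the lymphocyte list summed to 10.0 and 182 at E16.5 and 21.6 and 13.7 at E18.5, and Rag1, which rearranges receptor genes in the thymus and marrow, had 0.298 and 38.2 at E16.5 and 0.838 and 0.959 at E18.5. None of its 16 genes was called, although without E16.5-9 Rag1 and Cd3e, a chain of the T cell receptor complex, were called lower (adjusted p = 1.92e-05 and 0.0231). In the 10 tested erythroid genes nothing was called, and the summed FPKM was 114 and 59.6 at E16.5 and 99.4 and 61.3 at E18.5.

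Of 19 macrophage and myeloid genes, Lyz1 and Lyz2 were the 2 calls, and both are known from type 2 cells as well. The summed FPKM of the list was 186 and 121 at E16.5 and 2299.8 and 1063 at E18.5, and without these 2 genes it was 118 and 72.2 at E16.5 and 188 and 152 at E18.5. Mpeg1, a pore-forming protein of macrophages, had 5.13 and 2.95 at E16.5 and 20.3 and 14.3 at E18.5 without passing (adjusted p = 0.0769), and C1qa, a complement chain of tissue macrophages chosen after its values were seen, had 12.5 and 10.1 at E16.5 and 2.96 and 2.69 at E18.5 (adjusted p = 0.573). None of 8 neutrophil genes, with a median log2 difference of 0.26, and none of 11 MHC class II and interferon genes was called.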

How the data were processed

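The authors sequenced stranded total RNA, depleted of ribosomal RNA, from alveolar septa captured by laser, with 1 library per animal. The deposited FPKM values were made by the authors, whose processing notes name STAR 2.5.1, Cufflinks 2.2.1 and the mm10 build. Settings and annotation are not given in the sources used here. Samples were grouped by their age labels. Of lines that share a gene ID, the one with the highest mean was kept, which left 22779 genes, of which 15488 that reached 1 FPKM in 2 or more libraries were tested. Differences between E18.5 and E16.5 on log2(FPKM + 1) were fitted with limma 3.58.1 in R 4.3.3, 1 group per age over all 29 libraries, empirical Bayes with a trend, two-sided, with Benjamini-Hochberg adjustment over all genes tested. A pseudocount of 1 understates changes of low genes. The fit was tested on simulated data. Summaries and plots used Python 3.11.15, pandas 2.3.3, numpy 2.4.6 and matplotlib 3.10.9. Promoter sequences are from RefSeq, GRCm38.p6.

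Named genes were the 12 largest called increases and decreases with a mean of at least 5 FPKM at the higher age, outside the muscle and erythroid lists and predicted genes, up to 4 members of each list by smallest p with called members that go against the rest, up to 8 heart genes by level at E16.5, and 7 genes that define a cell type. The comparison, the lists and this rule were chosen with earlier results of these data known. Alternatives changed the pseudocount, the filter, the scaling, the libraries fitted and the weights. Genes without values, such as Nkx2-1, were not analysed here.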

Additional observations from a re-analysis of the deposited data

How the results depend on the processing

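With a pseudocount of 0.1, 208 genes were called lower, and with a fit of E16.5 to P2.5 alone, 229 were. With the 4 embryos alone 0 genes were called higher and 0 lower by limma, while 2703 had an unadjusted p under 0.05, against 2641 in the fit over all ages. Leaving out 1 embryo gave 170 to 303 genes called higher and 93 to 282 called lower. Changes of at least 1 on the log2 scale, other filters, summed lines, median ratio scaling, quantile normalization, array weights, and leaving out P10a, P19d and P19f gave 343 to 504 higher and 236 to 514 lower, each within 1.5 times the counts reported. Among named genes that were not called, Etv5 had a log2 difference of -0.09, which was 0.22 without E16.5-9 and -0.41 without E16.5-2, and Rag1 had -1.91, which was 0.55 without E16.5-2 and -4.37 without E16.5-9 (adjusted p = 1.92e-05). Cd3e, likewise not called, had -1.85, which was 0.48 without E16.5-2 and -4.18 (adjusted p = 0.0231) without E16.5-9. Of 109 named genes that were called, the fit of E16.5 to P2.5 lost 27 (Acsl4, Bmp10, Btg2, Cdon, Col1a1, Cpt1b, Cyp4b1, Eln, Eno1b, Epas1, Fasn, Fn1, Gpam, Heyl, Hsd11b1, Hspb7, Inmt, Kitl, Lig1, Lum, Mfap4, Mycn, Nefl, Nkd1, Pecam1, Retnla and Serpinb6b). A pseudocount of 0.1 lost 16 (Retnla, Eno1b, Hspb7, Trim55, Myl1, Popdc2, Lum, Itgb1bp2, Cpt1b, Fbn2, Col2a1, Igf2, Msln, Lrrn4, Wt1 and Gnmt). Quantile normalization lost Cdon, Heyl and Wt1, and stricter filters left Bmp10, Bmp7, Col2a1, Matn3, Nefl and Wt1 without a call. No paired analysis was possible because the E16.5 embryos carry the numbers 9 and 2 and the E18.5 embryos the numbers 4 and 3. The size of a difference rests on 2 embryos an age, the spread is borrowed from other ages, and read depth is unknown, so a gene listed at 0 gives no bound.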

Other observations

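A group of genes was at its highest in late gestation. Of the 386 genes called higher at E18.5, 48 (12.4%) had both E18.5 embryos above all 27 other libraries, against 301 of all 15488 genes tested (1.94%). Since these genes had been called higher than at E16.5, part of that excess is set by the call. The genes named here were chosen after their values were seen. Trf, which encodes the iron carrier transferrin, had 29.9 and 13.5 at E16.5 and 243 and 149 at E18.5 and at most 89.6 after birth. Pon1, the lactonase paraoxonase 1, had 0.370 and 0.147 at E16.5 and 29.9 and 17.3 at E18.5 and at most 8.87 after birth. Gnmt, glycine N-methyltransferase, had 0.588 and 0 at E16.5 and 8.96 and 16.9 at E18.5 and at most 3.74 after birth. Serpinb6b, a serine protease inhibitor, had 40.5 and 29.4 at E16.5 and 259 and 164 at E18.5, and Ctsh, the protease that trims surfactant proteins, had 42.0 and 42.3 at E16.5 and 245 and 180.0 at E18.5. Both E18.5 embryos were above every other library in each of these. The liver list, whose tissue also makes transferrin and paraoxonase, summed to 1.16 and 1.21 FPKM in the E18.5 embryos. The part of liver transcript in these genes was not tested. Adjusted p values were 4.14e-05 for Trf, 0.00271 for Pon1, 0.00134 for Gnmt, 0.00265 for Serpinb6b and 0.0235 for Ctsh. Trf and Gnmt were called in each fit that left out an embryo, though Gnmt was not called with a pseudocount of 0.1 (0.0605). Pon1 was lost without E18.5-4 (0.0524), Serpinb6b without E18.5-4 (0.0607), and Ctsh in all 4 of those fits (0.0663 to 0.202).

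On the other side, 229 of the 345 genes called lower (66.4%) had both E16.5 embryos above all 27 other libraries, against 1046 of the genes tested (6.75%). Part of that excess is set by the call, and part of both counts by the filter on low values. Genes that passed the filter through the E16.5 embryos alone, such as Bmp10, had to be highest there. With 1 FPKM required in 4 libraries, 293 genes were called lower. The 229 genes include Fbn2, H19 and Vcan, and also genes of the heart muscle list such as Actc1, Myl2, Myh7 and Ttn.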
